A study of Caenorhabditis elegans with 6 samples.

Results

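The body wall muscle filament genes described here are 8 genes of Caenorhabditis elegans that encode proteins of the thick and thin filaments: unc-54, myo-3, unc-15, unc-22, unc-89, lev-11, unc-27 and mup-2. They were chosen by name, and every probe set (a group of short probes that together read 1 transcript) annotated with only 1 of these symbols was taken. These were 8 of 17118 genes and 21 of 22548 probe sets tested, and no filter on low values was used, so all 21 are accounted for. There were 7 probe sets for lev-11, 5 for unc-89, 3 for unc-15, 2 for unc-22, and 1 each for unc-54, myo-3, unc-27 and mup-2.

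Whole L2 larvae of the N2 strain were profiled on 6 single-colour Affymetrix arrays. The 3 nhr-23 RNAi arrays came from larvae fed HT115 bacteria that carried the L4440 vector with an insert against the ligand-binding domain of nhr-23, a nuclear hormone receptor gene needed for molting. The 3 control arrays came from larvae fed HT115 with empty L4440. Both groups were put on the bacteria as synchronized L1 larvae and kept for 21 hours at 20 °C on 2% agarose. RNA of whole larvae mixes all tissues, so fewer muscle cells and less RNA per muscle cell cannot be told apart. The titles call the arrays biological replicates, and p-values measure only the spread between these samples.

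Body wall muscle moves the worm by the sliding of thin filaments over thick filaments in rows of sarcomeres under the epidermis. In nematodes the thick filament is a paramyosin core covered by myosin, and thin filaments carry tropomyosin and the troponin complex, which lets calcium start contraction. Giant proteins built of immunoglobulin-like domains lie along the thick filament and at the M-line, where thick filaments are cross-linked. Each molt renews the cuticle to which these muscles are anchored through the epidermis, and larvae go through a spell of reduced movement before it.

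The array values are log2 expression values per probe set, and array medians lay between 5.12 and 5.18. The targeted gene gave a mixed check of the labels. A probe set of nhr-23 read 7.67, 7.47 and 7.52 in the RNAi-labelled arrays, against 8.27, 8.12 and 7.74 in controls. The second read 8.76, 9.61 and 8.76 in RNAi-labelled arrays, against 6.60, 6.56 and 5.80 in controls, a log2 difference of 2.72. By limma its adjusted p was 0.993, and 0.0370 with the replicate number as a block, so that 1 of the 2 probe sets called with the block is the targeted gene, higher with RNAi. The first goes with the labels, and the second goes against them unless it reads the fed RNA, which was not tested. Every direction below rests on the labels as given.

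None of the 21 probe sets of the filament genes passed the test between the groups. By limma with Benjamini-Hochberg adjustment over all probe sets, 0 of 21 were past the threshold of 0.05 (smallest adjusted p = 0.993), where 0% of all probe sets were called. At an unadjusted p under 0.05 there was 1 of 21 (4.76%), against 3.69% of all probe sets. With the replicate number as a block, 0 of 21 passed (smallest adjusted p = 0.621), against 0.00887% of all probe sets, and 1 of 21 had an unadjusted p under 0.05, against 5.96% of all. The log2 differences, RNAi minus control, ran from -0.30 to 0.20. The 95% interval lay inside a 1.5-fold change either way in 18 of 21 probe sets and inside a 2-fold change in 20 of 21. For the brightest probe set of each gene, which stands for the gene below, all 8 intervals lay inside 1.5-fold. The lowest bound of the 8 was 0.819-fold and the highest was 1.35-fold.

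**Figure D1:**
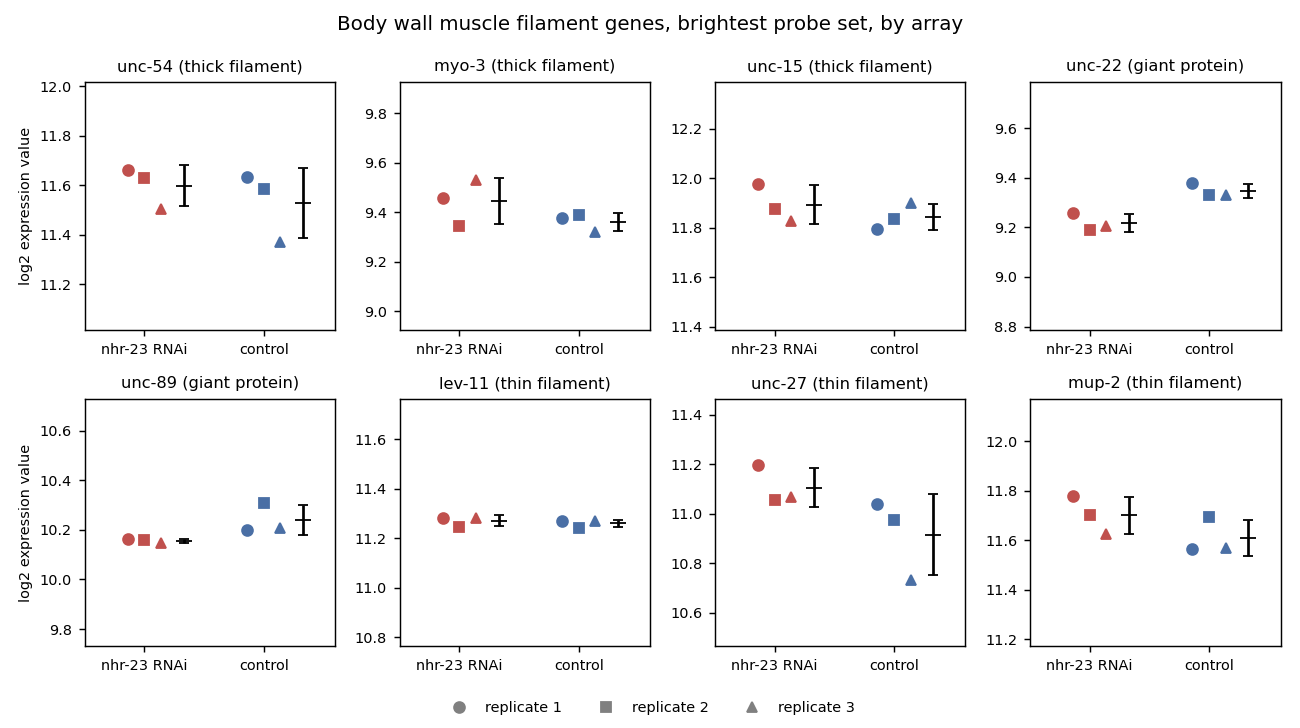
Log2 expression values (vertical axis, 1 log2 unit high in every panel) of the brightest probe set of each gene, in nhr-23 RNAi arrays (red) and control arrays (blue), with marker shapes for replicate numbers and black bars for the mean and SD of 3 arrays. Differences of group means lay between -0.13 and 0.19, and the groups overlap for unc-54, myo-3, unc-15, lev-11 and mup-2 but not for unc-22, unc-89 and unc-27.

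The thick filament genes differed little between the groups. The gene unc-54 encodes myosin heavy chain B, the main myosin of body wall muscle. It read 11.66, 11.63 and 11.51 in the RNAi-labelled arrays, against 11.64, 11.58 and 11.37 in controls. The values overlapped, with both replicate 3 arrays the lowest of their group. The log2 difference was 0.07 (SE 0.10, 95% interval -0.16 to 0.30), and it was -0.01 without control replicate 3. The gene myo-3 encodes myosin heavy chain A, which forms the middle of the filament where assembly starts. It read 9.46, 9.34 and 9.53 in the RNAi-labelled arrays, against 9.38, 9.39 and 9.32 in controls. The groups overlapped through RNAi replicate 2. The log2 difference was 0.08 (SE 0.08, 95% interval -0.10 to 0.27), 0.04 when RNAi replicate 3 was left out and 0.13 when RNAi replicate 2 was.

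The 3 probe sets of unc-15, which encodes paramyosin, the core of the thick filament, gave log2 differences close to 0 and of both signs. The brightest read 11.98, 11.87 and 11.83 in RNAi-labelled arrays, against 11.80, 11.84 and 11.90 in controls, and the groups overlapped. Its log2 difference was 0.05 (95% interval -0.13 to 0.23). The others differed by -0.05 (95% interval -0.22 to 0.12) and by 0.05 (95% interval -0.31 to 0.40). In the last, control replicate 3 read 11.31, against 11.76 and 11.66 in the other controls, and without it the difference was -0.09. The widest bound of the 3 intervals was 1.32-fold.

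All 7 probe sets of the giant proteins gave a log2 difference below 0, with a median of -0.19, as did 45% of all probe sets. This grouping was made after the values were seen, the probe sets of a gene share their transcripts, and no test was made of the count. None of the 7 passed limma. UNC-22 is twitchin, a titin-like protein of the thick filament with a kinase domain, whose loss makes muscles twitch. Its brighter probe set read 9.26, 9.19 and 9.21 in RNAi-labelled arrays, against 9.38, 9.33 and 9.33 in controls, and the groups did not overlap. The log2 difference was -0.13 (SE 0.07, 95% interval -0.29 to 0.03), limma's unadjusted p was 0.0944 and the adjusted p was 0.993. The differences in the pairs of replicates 1, 2 and 3 were -0.12, -0.14 and -0.12 log2. The dimmer probe set read 7.34, 7.10 and 7.32 in RNAi-labelled arrays, against 7.68, 7.59 and 7.25 in controls. Control replicate 3 lay inside the range of the RNAi-labelled arrays. Its log2 difference was -0.25 (SE 0.13), -0.17 without control replicate 1 and -0.38 without control replicate 3.

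UNC-89 is the worm obscurin, a giant protein of the M-line. The brightest of its 5 probe sets read 10.16, 10.16 and 10.15 in RNAi-labelled arrays, against 10.20, 10.31 and 10.21 in controls. The groups did not overlap, and the log2 difference was -0.08 (SE 0.07, 95% interval -0.25 to 0.08). A second read 8.35, 7.92 and 8.30 in RNAi-labelled arrays, against 8.40, 8.40 and 8.50 in controls. Here too the groups did not overlap, but the log2 difference of -0.24 (SE 0.12) became -0.11 without RNAi replicate 2, the lowest array. It was -0.32 without RNAi replicate 1. The probe set with the smallest unadjusted p of the 21, 0.0395 by limma (adjusted p = 0.993), read 6.14, 6.33 and 6.07 in RNAi-labelled arrays, against 6.49, 6.32 and 6.46 in controls. It differed by -0.24 log2 (95% interval -0.47 to -0.02). The other two differed by -0.07 and -0.19 log2. The first of these was 0.03 without RNAi replicate 2, and the second was -0.04 without control replicate 2 and -0.37 without control replicate 3. Of the 7 giant protein probe sets 3 were lower in every same-number pair, where 11.1% of all probe sets were. This pairing was taken from the values alone.

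**Figure D2:**
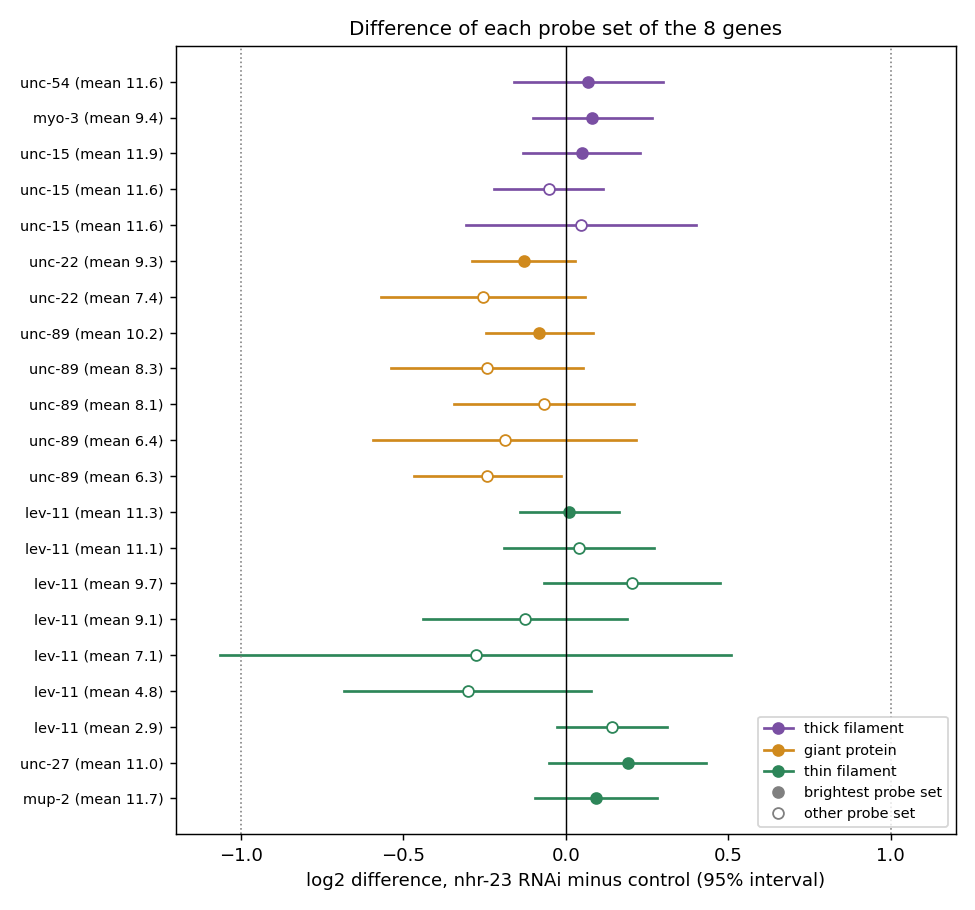
Log2 difference, nhr-23 RNAi minus control (horizontal axis), of each of the 21 probe sets with its 95% interval from limma, ordered by role, each row named by gene and mean log2 value over 6 arrays, with dotted lines at 2-fold. The 7 orange points of unc-22 and unc-89 lie left of 0, and the interval of 1 lev-11 probe set reaches past 2-fold.

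The thin filament genes of the troponin complex were slightly higher in the RNAi-labelled arrays, and neither passed. UNC-27 is troponin I, the subunit that holds back contraction when calcium is low. It read 11.20, 11.06 and 11.07 in RNAi-labelled arrays, against 11.04, 10.98 and 10.73 in controls. The groups did not overlap, though the gap between RNAi replicate 2 and control replicate 1 was small beside the spread of the controls. The log2 difference was 0.19 (SE 0.10, 95% interval -0.05 to 0.43, limma unadjusted p = 0.106), the largest of the 8 genes in size. It was 0.10 without control replicate 3, the lowest array, and 0.25 without control replicate 1. MUP-2 is troponin T, which ties the troponin complex to tropomyosin. It read 11.78, 11.70 and 11.63 in RNAi-labelled arrays, against 11.56, 11.69 and 11.57 in controls. The groups overlapped, and the log2 difference was 0.09 (SE 0.08, 95% interval -0.10 to 0.28).

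Tropomyosin, the coiled coil along the thin filament, is encoded by lev-11, which makes several isoforms in different tissues of the worm. Its 7 probe sets spanned means from 2.92 to 11.27 over the 6 arrays, and which isoforms each reads is not known here. The brightest read 11.28, 11.25 and 11.28 in RNAi-labelled arrays, against 11.27, 11.24 and 11.27 in controls. With a pooled SD of 0.019 this was the least variable of the 21 probe sets, and its log2 difference was 0.01 (95% interval -0.14 to 0.16). The next brightest differed by 0.04 log2 (SE 0.10), and by -0.05 without RNAi replicate 1. The 5 dimmer probe sets went both ways, with 3 lower and 2 higher. One read 9.88, 9.84 and 9.77 in RNAi-labelled arrays, against 9.69, 9.79 and 9.39 in controls. Its log2 difference was 0.20 (SE 0.11), 0.09 without control replicate 3 and 0.29 without control replicate 2. The groups overlapped by RNAi replicate 3 and control replicate 2. The probe set with a mean of 4.79 read 4.51, 4.47 and 4.93 in RNAi-labelled arrays, against 4.76, 4.89 and 5.17 in controls. Its log2 difference was -0.30 (SE 0.16), the same in sign in each same-number pair, at -0.25, -0.41 and -0.24. It was -0.19 without control replicate 3 and -0.45 without RNAi replicate 3. By limma with the replicate block its unadjusted p was 0.0118 and its adjusted p was 0.621. The dimmest read 2.98, 3.02 and 2.96 in RNAi-labelled arrays, against 2.82, 2.80 and 2.92 in controls, a level so low that whether it measures any transcript is not known.

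The 2 remaining lev-11 probe sets stood apart by a single array. That with a mean of 7.12 read 7.40, 6.21 and 7.33 in RNAi-labelled arrays, against 7.29, 7.54 and 6.95 in controls. RNAi replicate 2 lay 0.91 log2 below the mean of the 6 arrays, while no other array lay over 0.42 from it. The log2 difference was -0.28 (SE 0.33, 95% interval -1.06 to 0.51), and 0.11 without RNAi replicate 2. The probe set with a mean of 9.07 read 9.11, 8.71 and 9.19 in RNAi-labelled arrays, against 9.16, 9.12 and 9.10 in controls, with RNAi replicate 2 again the lowest. Its log2 difference was -0.13, and 0.02 without that array.

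The same array was low for contractile genes of the pharynx, the feeding organ, whose muscle has its own set of filament proteins. The 5 genes listed were myo-1 and myo-2, encoding pharyngeal myosins, and tnc-2, tni-4 and tnt-4, encoding pharyngeal troponins. Their mean was 8.62, 7.63 and 8.72 in RNAi-labelled arrays, against 8.64, 8.74 and 8.42 in controls. RNAi replicate 2 lay below the 6-array mean by between 0.48 log2 for myo-2 and 1.18 log2 for tnt-4. This array was not low for pharyngeal genes alone. In the lists given below it also had the lowest mean for other thick filament (8.88), other thin filament (9.33) and dense body genes (8.38). So it did for excitation genes (6.84), dystrophin complex genes (6.04) and neuron markers (7.98). It had the highest mean for transcription factors (4.43), intestinal markers (9.35) and germline markers (7.05). Over the brightest probe sets of the 8 filament genes, the mean deviation from the 6-array mean was -0.0063 in RNAi replicate 2. Over all 21 probe sets, however, RNAi replicate 2 was the lowest array in 9, more than any other array, and the highest in 1. The 21 include 7 probe sets of lev-11 and 5 of unc-89, and the same count was not made over all probe sets. In the replicate 2 pair 13 of 21 were lower, with a median of -0.10 log2, against 0.02 log2 over all probe sets. The part of pharyngeal tissue in the values of these 2 lev-11 probe sets was not tested.

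**Figure D3:**
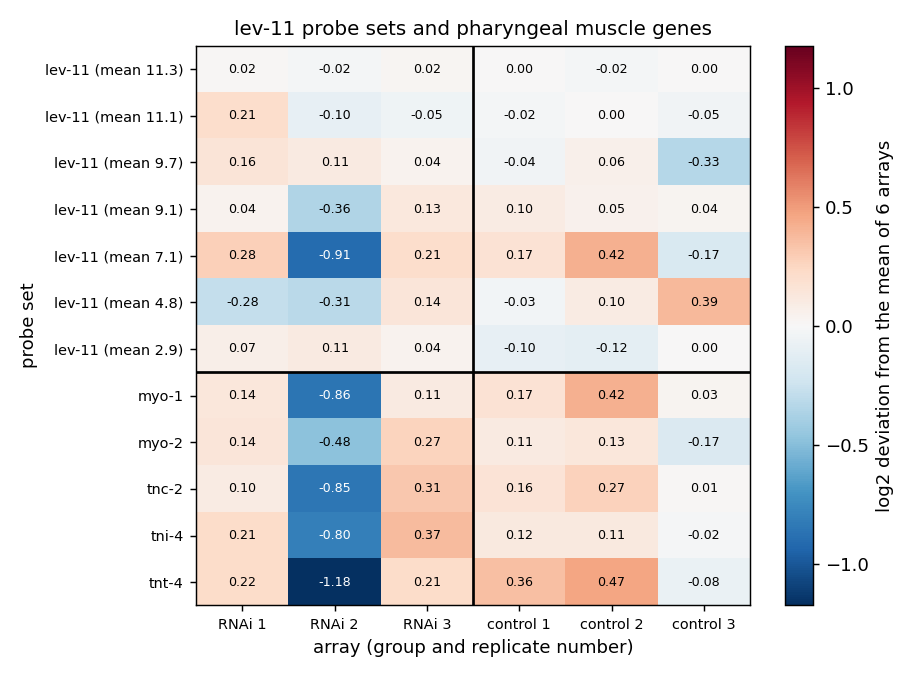
Log2 deviation from the mean of the 6 arrays (colour and printed value) for the 7 lev-11 probe sets (top, named by their mean log2 value) and 5 pharyngeal muscle genes (bottom) in each array (columns). RNAi replicate 2 is at -0.91 for the lev-11 probe set with mean 7.12 and between -1.18 and -0.48 for the pharyngeal genes, and within 0.02 of the mean for the brightest lev-11 probe set.

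As a group the 8 genes had a median log2 difference of 0.06, against 0.02 over all 17118 genes. Of the 8 genes 6 were higher and 2 lower, where 55.7% of all genes were higher and 44.3% lower. Of the 21 probe sets 12 may read several transcripts, since their IDs end in _s_at or _x_at, among them all those of unc-54, myo-3 and mup-2. Such probe sets stood for 5 of the 8 genes, since the brightest of unc-15 and of lev-11 are also of this kind. Without them unc-54, myo-3 and mup-2 dropped out, and lev-11 was read by its dimmest probe set, with a mean of 2.92. The median of the 5 genes left was -0.05, so that the sign of the median depends on which genes and probe sets are kept. Among the 21 probe sets the groups did not overlap in 5 (23.8%), against 9.5% of all probe sets. Of these 2 were higher and 3 lower, where 6.36% and 3.14% of all probe sets were. Probe sets of a gene are not independent, and 3 of the 5 were those of unc-22 and unc-89. In all 3 same-number pairs 6 of 21 (28.6%) were higher and 4 of 21 (19%) lower, against 16.3% and 11.1% of all probe sets. The median within-group SD of the 21 was 0.117, against 0.127 over all probe sets, and that of the brightest probe sets was 0.0687. Whatever its sign, the log2 difference had a median size of 0.127 in the 21, against 0.0776 over all probe sets.

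The 8 genes did not move together over the arrays. Pearson's r between their brightest probe sets over the 6 arrays was above 0 for 14 of 28 pairs, with a median of -0.02, given as a description of arrays that share 2 treatments. The highest was 0.87 for unc-54 and unc-27, both lowest in control replicate 3, and the lowest was -0.61 for unc-89 and lev-11. The mean deviation of the 8 genes ran from -0.07 in control replicate 3 to 0.07 in RNAi replicate 1. Of 16673 other genes that varied at least as much as this mean (SD over 6 arrays of 0.043), the most alike were top-3B, ubxn-4, cdr-6, eat-6 and C18E9.5, with r over the 6 arrays between 0.986 and 0.991. Among them eat-6 encodes the alpha subunit of the sodium pump. In all, 231 of these genes (1.39%) had r above 0.9.

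Genes that work with the filaments were compared in 8 lists set by role, of which 7 are of muscle or its attachment to the epidermis and 1 is of the pharynx. They held 104 measured genes other than the members, of which 45 were higher and 59 lower with RNAi, at a median log2 difference of -0.03. By limma 0 of 104 passed, also with the replicate block, and 3 (2.88%) had an unadjusted p under 0.05, against 3.69% of all probe sets. Among other thick filament and M-line genes 7 of 9 were lower, at a median of -0.05 log2, which was 0.0059 without RNAi replicate 2. The most negative was ttn-1, which encodes a titin-like giant protein. It averaged 8.59 ± 0.17 in RNAi-labelled arrays and 8.84 ± 0.11 in controls (SD, n = 3 each), a log2 difference of -0.25, and the groups did not overlap. Its dimmer probe sets differed by between -0.39 and 0.03 log2. The myosin light chain genes mlc-1, mlc-2 and mlc-3 differed by -0.05, 0.04 and -0.04 log2, and the myosin chaperone gene unc-45 by -0.17 log2. The most positive was unc-96, at 0.11 log2, whose protein lies at the M-line. The dimmer unc-96 probe set was at -0.04 log2.

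Of other thin filament and actin turnover genes 6 were higher and 11 lower, with a median of -0.03 log2, which was 0.02 without RNAi replicate 2. Of the 20 listed 17 were measured by a probe set of 1 gene. Actin genes act-3 and act-4 differed by -0.01 and -0.10 log2, and pat-10, which encodes troponin C of body wall muscle, by 0.06. Of the other troponin genes in the list, tni-1 differed by -0.02, tni-3 by -0.03, tnt-2 by 0.09 and tnt-3 by -0.24 log2, and tnt-3 was lower in each same-number pair. The calponin-like genes held both extremes of the list. For cpn-2 the mean was 6.12 ± 0.54 in RNAi-labelled arrays and 6.60 ± 0.75 in controls (SD, n = 3 each), and for cpn-3 it was 10.51 ± 0.11 and 10.39 ± 0.18 in the same order, log2 differences of -0.48 and 0.12. Dense body and attachment genes, which anchor thin filaments to the membrane, were higher in 14 of 21 cases with a median of 0.03 log2, which was -0.07 without _s_at and _x_at probe sets and -0.0025 without RNAi replicate 1. Their range was narrow, from -0.19 for uig-1, a guanine nucleotide exchange factor, to 0.14 for dim-1, which encodes an immunoglobulin-domain protein of muscle. The second probe sets of both were at -0.02 and -0.05 log2.

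Of 25 genes of muscle excitation and calcium handling 17 were lower, at a median of -0.08 log2. This median was -0.14 with RNAi replicate 3 left out, and -0.01 with RNAi replicate 2 left out. The calcium channel subunit gene unc-36 was the lowest, at 7.09 ± 0.13 in RNAi-labelled arrays and 7.41 ± 0.04 in controls (SD, n = 3 each), a log2 difference of -0.32 (limma unadjusted p = 0.00967, adjusted p = 0.993). The ryanodine receptor gene unc-68, whose channel releases calcium in muscle, differed by -0.27 log2, with -0.61 in the replicate 2 pair against -0.11 and -0.08 in the pairs of replicates 1 and 3. The gene csq-1 of calsequestrin, the calcium store protein, was the highest at 0.23 log2, with 0.50 in the replicate 3 pair. Many genes of this list also work in neurons, whose markers were lower in 7 of 8 cases, with a list mean between 7.98 and 8.26 in RNAi-labelled arrays and between 8.19 and 8.40 in controls. Their part in these values was not tested.

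Dystrophin complex genes were split 5 to 5, with a median of 0.01 log2 (0.09 without RNAi replicate 2), and ran from -0.12 for stn-1 of syntrophin to 0.13 for ctn-1, an alpha-catulin gene. The dimmer probe sets of ctn-1 were at -0.12 and 0.08 log2, and that of stn-1 at -0.11. Muscle transcription factor genes were split 4 to 4, with a median of -0.01 log2 (0.04 without RNAi replicate 3). Most of these genes read low, and the filter on dim probe sets left only 1, unc-120, at -0.08 log2. The MyoD homolog hlh-1 was the highest, at 0.18 log2 (4.28 ± 0.21 in RNAi-labelled arrays and 4.11 ± 0.11 in controls, SD, n = 3 each), and hlh-8, a Twist homolog of the sex muscle lineage, the lowest at -0.28 log2 (limma unadjusted p = 0.0120, adjusted p = 0.993). Values of hlh-8 averaged 4.66 ± 0.04 in RNAi-labelled arrays and 4.95 ± 0.12 in controls (SD, n = 3 each), below the array medians. Genes of the epidermal structures that fasten muscle to the cuticle were higher in 6 of 9 cases, with a median of 0.06 log2. It was 0.15 without RNAi replicate 2, 0.02 without control replicate 1, and -0.04 with both replicate 1 arrays left out. Here mua-6, an intermediate filament gene, was the highest at 0.36 log2, and mua-3, encoding a transmembrane attachment protein, the lowest at -0.21, with SDs of 0.60 in RNAi-labelled arrays and 0.73 in controls. A dimmer mua-3 probe set, at means of 3.51 in RNAi-labelled arrays and 3.37 in controls, differed by 0.14 log2. All 5 pharyngeal contractile genes were lower, at a median of -0.29 log2, from -0.50 for tnt-4 to -0.05 for myo-2. Without RNAi replicate 2 this median was 0.06, and with both replicate 2 arrays left out it was 0.12.

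**Figure D4:**
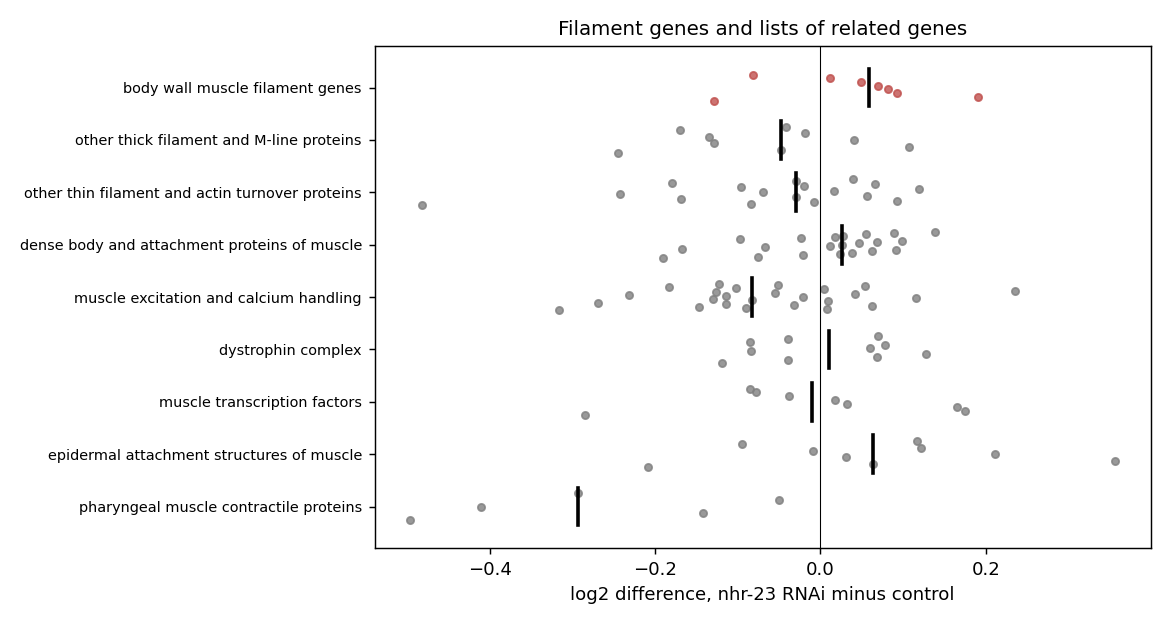
Log2 difference, nhr-23 RNAi minus control (horizontal axis), of each gene (point) and the median (black bar) for the 8 body wall muscle filament genes (red) and 8 lists of related genes (grey). Medians lay between -0.08 and 0.06 for all lists but the pharyngeal one, at -0.29.

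Markers of other tissues give the setting of these values. The mean of the 8 body wall muscle markers, 7 of which are filament genes, lay between 9.87 and 9.98 in RNAi-labelled arrays and between 9.83 and 9.91 in controls. Its range in each group was narrower than that of 8 epidermal markers, at 8.62 to 9.54 in RNAi-labelled arrays and 9.20 to 9.78 in controls. Intestinal markers lay at 9.14 to 9.35 in RNAi-labelled arrays and 9.08 to 9.23 in controls, and germline markers at 6.74 to 7.05 and 6.70 to 6.86 in the same order. The body wall muscle markers read above the array medians in all 6 arrays except hlh-1, at means of 4.28 in RNAi-labelled arrays and 4.11 in controls.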

How the data were processed

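Total RNA (4 ug per sample) of whole larvae was labelled and hybridised to Affymetrix arrays, 3 for nhr-23 RNAi and 3 for control. The values as deposited are log2 per probe set. The submitters' processing notes name MAS5, RMA and Partek without saying which made them. Background and saturation of single probe sets are not known, so bright and dim differences may be compressed, and precision is limited by having 6 arrays. Of 22625 probe sets 77 were array controls. The platform annotation gave 1 symbol for 20766, several for 887 and none for 895. Symbols were updated by Entrez identifier (20701 found in the WBcel235 gene table). No coordinates are given, since no source used here names the array's build.

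Probe sets were fitted with limma 3.58.1 in R 4.3.3 (lmFit, eBayes, 2-sided, group as the only term, Benjamini-Hochberg over 22548, threshold 0.05). The fit was also run on simulated data. There every array was drawn on its own, without the pairing described below, so that run is not used as support. Lists were described by counts and medians, with the brightest probe set for a gene and no test. The members and lists were chosen with earlier results of these data known. Named by rule were all member probe sets, nhr-23, both extremes of each list and the 5 genes most alike over the arrays. Other genes were picked after their values were seen. Of listed genes, act-1, act-2, dys-1, tmd-1, ifa-2 and opt-2 had no single-gene probe set under that name. The names tmd-1, ifa-2 and opt-2 were not found in the gene table and may be older names of listed or other genes.

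Deviations from group means correlated between same-numbered arrays at 0.58, 0.167 and 0.573 for replicates 1, 2 and 3, so the numbers were taken to pair the arrays, on the values alone. For replicate 2 the values do not single out this pair, since RNAi replicate 1 and control replicate 2 correlated at 0.233. The block fit and the same-number pairs rest on this pairing. Alternatives were the replicate block, quantile normalization, median centring, a filter on dim probe sets, leaving out _s_at and _x_at probe sets, trend and robust eBayes, the mean of a gene's probe sets, and leaving out arrays.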

Additional observations from a re-analysis of the deposited data

How the results depend on the processing

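The count of 0 of 21 filament probe sets past the threshold was the same under every alternative run. In every alternative fit but the replicate block, no probe set of the whole array passed either. The count is therefore not particular to the filament genes. Over all probe sets the replicate block gave 2 in place of 0, of which 1 reads nhr-23 and neither a filament gene, and it changed no other call. The median of the 8 genes, 0.06 log2, stayed within 0.02 and 0.08 log2 under the other alternatives, including leaving out 1 array or a same-number pair (0.02 to 0.07), except without _s_at and _x_at probe sets, where it was -0.0523 over 5 genes. Signs of some single probe sets turned when arrays were left out, and not only where the difference was near 0. The log2 difference then ran from -0.00992 to 0.122 for unc-54, from -0.0858 to 0.169 and from -0.0184 to 0.110 for 2 unc-15 probe sets, and from -0.212 to 0.0813 for 1 unc-89 probe set. For 3 lev-11 probe sets it ran from -0.235 to 0.0202, from -0.0532 to 0.111 and from -0.609 to 0.246. The first and last of these differed by -0.127 and -0.278 log2 with all 6 arrays. Medians of the lists also turned sign or moved by over 1.5 times. Leaving out arrays, they ran from -0.591 to 0.123 for pharyngeal contractile genes, from -0.143 to 0.00401 for excitation and calcium handling, from -0.0114 to 0.0926 for dense bodies, and from -0.0405 to 0.146 for epidermal attachment (0.110 with the mean of all probe sets of a gene). They ran from -0.101 to 0.00683 for other thick filament genes, from -0.0583 to 0.0186 for other thin filament genes, from -0.0342 to 0.0936 for the dystrophin complex and from -0.0275 to 0.0434 for transcription factors. The dense body median was -0.0662 without _s_at and _x_at probe sets. The cause was not tested. No such setting turned unc-22, unc-27, myo-3 or mup-2.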
